A study of Mus musculus with 10 samples.

Results

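The expression of 10 genes that govern glucose uptake and the pace of glycolysis was followed in CD8+ T cells: the glucose transporters Slc2a1, Slc2a3, Slc2a6 and Slc2a8, the 4 Pfkfb genes of fructose-2,6-bisphosphate metabolism (Pfkfb1, Pfkfb2, Pfkfb3 and Pfkfb4), the related phosphatase Tigar, and Txnip, an inhibitor of glucose uptake. They were taken by name from a list drawn up with earlier results of these data known, and each symbol was matched to a single protein-coding entry, giving 10 of the 57825 genes listed in the deposited table. All 10 were detected in every sample.

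CD8+ T cells from the spleens of female Balb/c mice, 7 to 8 weeks old, were isolated with magnetic beads. In the general co-culture protocol the cells were activated for 12 h on plate-bound anti-CD3 with IL-2 and anti-CD28, kept with or without sodium acetate (NaAc) for 24 h and then co-cultured for 48 h with 4T1 cells, a mouse mammary carcinoma line of the same strain. RNA was taken at day 3 from purified CD8+ T cells. The group CD8+4T1 (n = 5) received no acetate, and the group CD8+4T1+NaAc (n = 5) received 5 mM, so that co-culture with tumor cells was common to both. No T cells cultured alone were compared here. The labels number the samples 1 to 5 in each group without saying whether they came from separate mice or cultures, so the p-values measure the spread between these samples, which may be technical.

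Glucose enters T cells by facilitated diffusion through transporters of the SLC2A (GLUT) family, and activated T cells raise both uptake and glycolysis. Inside the cell, phosphofructokinase is stimulated by fructose-2,6-bisphosphate, which the bifunctional PFKFB enzymes make and break down: the PFKFB3 protein mainly makes it, whereas TIGAR breaks it down. TXNIP binds thioredoxin and drives GLUT1 from the cell surface, and its gene is switched on by the glucose-sensing factor MondoA (Mlxip) with its partner Mlx.

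Expression is given as FPKM, fragments per kilobase of gene length scaled to a common library size. The depth behind the values was 16306447 to 17443395 fragments per CD8+4T1 sample and 16503701 to 18853726 per CD8+4T1+NaAc sample. Of these, 95.5% to 97.9% lay in listed genes without acetate and 89.8% to 92.1% with it, a difference whose part in the results was not tested. The T cell label was checked with Cd8a, which stood at 78.6 ± 2.34 FPKM (SD, n = 5) without and 76.5 ± 4.37 with acetate (log2 fold change -0.04, limma adjusted p = 0.559, and 0.14 with limma adjusted p = 0.0475 when samples were rescaled to the same total). Of 14 T cell markers, 1 was higher and 7 were lower with acetate, among them Cd3d (log2 fold change -0.54, limma adjusted p = 0.00405), and their summed level was 1459.3 to 1674.6 FPKM without and 1134.4 to 1604.3 with acetate. Of all genes tested, 17.6% were higher and 19.0% lower. Rescaled to the same total, 4 of the T cell markers were higher and 5 lower, compared with 31.2% and 8.83% of all genes. The lowest sum belonged to CD8+4T1+NaAc replicate 1, which also listed the fewest genes above 0 (20233, against 22291 to 25088 in the other samples). Of 20 epithelial markers that 4T1 cells can carry, 11 were tested, 6 were higher and 1 was lower, and none of the 20 was at 0 in all samples. Their summed level was 26.0 to 36.3 FPKM without and 82.0 to 189.8 with acetate. Krt8 stood at 3.42 ± 1.69 without and 34.2 ± 13.1 with acetate, whereas Epcam did not pass the test (log2 fold change 0.41, limma adjusted p = 0.305). Myeloid markers summed to 25.4 to 35.5 and 28.6 to 33.4 FPKM, with 2 of 4 tested higher and S100a9 at 0. Of B cell markers 0 of 3 tested passed limma's threshold, but 2 were higher when samples were rescaled to the same total; they summed to 13.1 to 14.3 and 12.1 to 21.1. Other lymphocyte and dendritic markers summed to 1.47 to 2.27 and 2.34 to 3.64, with Siglech at 0 and Cd4 higher, the only call among 2 tested. The part of these differences in the results for the 10 genes was not tested, and in bulk RNA fewer cells of a type and less RNA per cell cannot be told apart.

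To ask whether acetate changed the expression of these genes, the groups were compared with limma on log2(FPKM + 0.1). Of the 10 genes, 7 passed an adjusted p of 0.05, where 36.5% of the 15710 genes tested did so. Slc2a1, Slc2a3 and Pfkfb3 fell, against 19.0% of all genes, and Slc2a6, Slc2a8, Pfkfb4 and Txnip rose, against 17.6%. The groups did not overlap for 6 of the 10, compared with 26.4% of all genes. None changed by more than 1 on the log2 scale, which 6.47% of all genes did while passing the test. The split of all calls moved with the scaling: with every sample rescaled to the same FPKM total, 40.0% of genes passed, 31.2% higher and 8.83% lower, and scaled to the T cell markers 33.8% passed, 27.1% higher and 6.70% lower. Under each of these scalings the median over the genes tested moved from -0.02 to 0.15 on the log2 scale. Median-ratio scaling changed little: 5794 genes passed, compared with 5742 with the deposited FPKM, and the median was -0.03. Without replicate 1 of both groups 44.4% passed, 21.8% higher and 22.6% lower. The direction and the call of the 7 genes held under all these settings. In an exact two-sided permutation test, Slc2a1, Slc2a3, Slc2a6, Slc2a8, Pfkfb3 and Pfkfb4 each reached 0.00794, the smallest p that 5 against 5 samples can give, Txnip reached 0.0159, and Tigar (0.167), Pfkfb2 (0.206) and Pfkfb1 (0.706) did not pass.

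**Figure D1:**
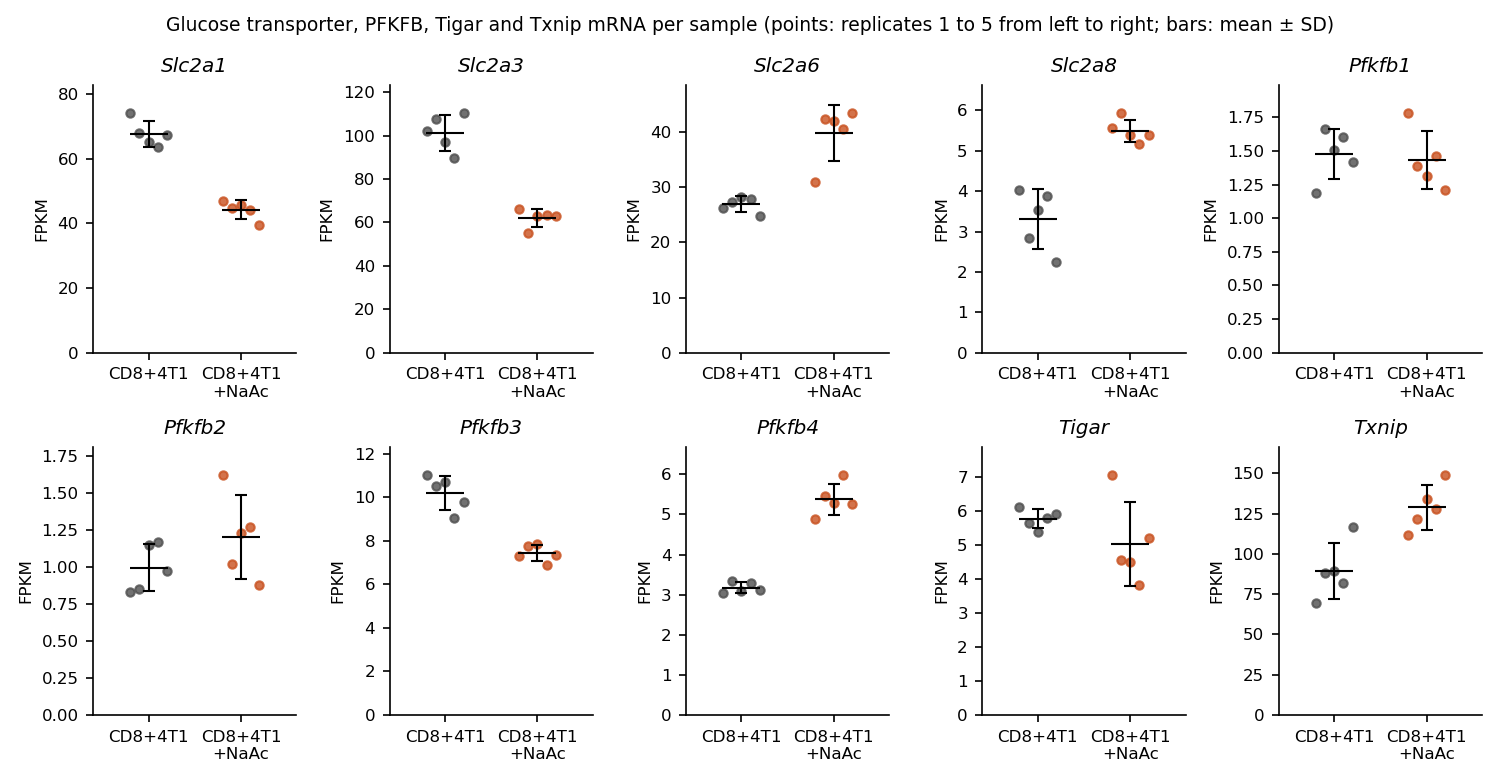
FPKM of the 10 genes in each of the 10 samples, with the mean and SD of each group (n = 5). The groups do not overlap for Slc2a1, Slc2a3, Slc2a6, Slc2a8, Pfkfb3 and Pfkfb4, and they overlap for Txnip, Tigar, Pfkfb1 and Pfkfb2.

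Both major glucose transporters fell with acetate. Slc2a1 encodes GLUT1, the main transporter of activated T cells, and is listed on chromosome 4 from 118965908 to 118995180 (plus strand; the genome build of the table is not given in the sources used here). Its level was 74.0, 67.8, 65.0, 63.7 and 67.3 FPKM in the CD8+4T1 samples and 46.9, 44.8, 45.7, 44.1 and 39.4 with acetate. Every acetate sample was below every sample without acetate. The mean went from 67.6 ± 3.96 to 44.1 ± 2.87 (SD, n = 5 per group), or 65.4% of the level without acetate. The log2 fold change of Slc2a1 was -0.61 ± 0.06 (SE; 95% interval -0.74 to -0.48; limma adjusted p = 4.29e-05), and it was -0.44 in samples rescaled to the same total (limma adjusted p = 0.000758).

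Slc2a3 encodes GLUT3, a transporter with a high affinity for glucose, and is listed on chromosome 6 from 122704768 to 122778599 (minus strand). It stood at 102.3, 107.5, 96.9, 89.6 and 110.3 FPKM without acetate and at 66.1, 55.3, 62.9, 63.4 and 62.8 with it. The groups were again apart. The mean was 101.3 ± 8.30 without and 62.1 ± 4.06 with acetate, 61.3% of the former (log2 fold change -0.70 ± 0.07, SE; 95% interval -0.86 to -0.55; limma adjusted p = 4.57e-05). Slc2a3 was the higher of the pair in every sample, with a Slc2a3 to Slc2a1 ratio of 1.50 ± 0.110 without and 1.41 ± 0.133 with acetate.

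The other two transporters rose. Slc2a6 encodes GLUT6, which resides largely in intracellular compartments, and is listed on chromosome 2 from 26911375 to 26918010 (minus strand). Its values were 26.2, 27.4, 28.3, 27.9 and 24.8 FPKM without acetate and 31.0, 42.4, 42.0, 40.6 and 43.4 with it. Replicate 1 of the acetate group lay below its 4 companions, yet above all samples without acetate. The mean of Slc2a6 went from 26.9 ± 1.42 to 39.9 ± 5.05 (log2 fold change 0.56 ± 0.09, SE; 95% interval 0.36 to 0.75; limma adjusted p = 0.000712), and without replicate 1 of both groups the log2 fold change was 0.64.

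Slc2a8 encodes GLUT8, also an intracellular transporter, and is listed on chromosome 2 from 32863002 to 32872095 (minus strand). It was expressed at a lower level, 4.03, 2.84, 3.54, 3.88 and 2.25 FPKM without acetate and 5.56, 5.93, 5.40, 5.18 and 5.39 with it, from 119 to 359 fragments per sample. No value of one group fell within the range of the other. The mean was 3.31 ± 0.748 without and 5.49 ± 0.282 with acetate (log2 fold change 0.74 ± 0.14, SE; 95% interval 0.43 to 1.06; limma adjusted p = 0.00227).

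The makeup of the transporter transcripts is given as a description with no test. The 4 transporters summed to 185.1 to 206.5 FPKM without and 148.4 to 155.9 with acetate, so that the ranges did not overlap. Slc2a3 made up 50.8% ± 2.23 of that sum without and 40.9% ± 2.53 with acetate, and Slc2a1 33.9% ± 1.20 and 29.1% ± 1.95. Slc2a6 went from 13.6% ± 1.26 to 26.3% ± 3.29, and Slc2a8 from 1.67% ± 0.414 to 3.63% ± 0.245. In the acetate group the level of Slc2a6 overlapped that of Slc2a1 (31.0 to 43.4 against 39.4 to 46.9 FPKM), whereas without acetate the lowest Slc2a1 value was 63.7 and the highest Slc2a6 value 28.3.

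**Figure D2:**
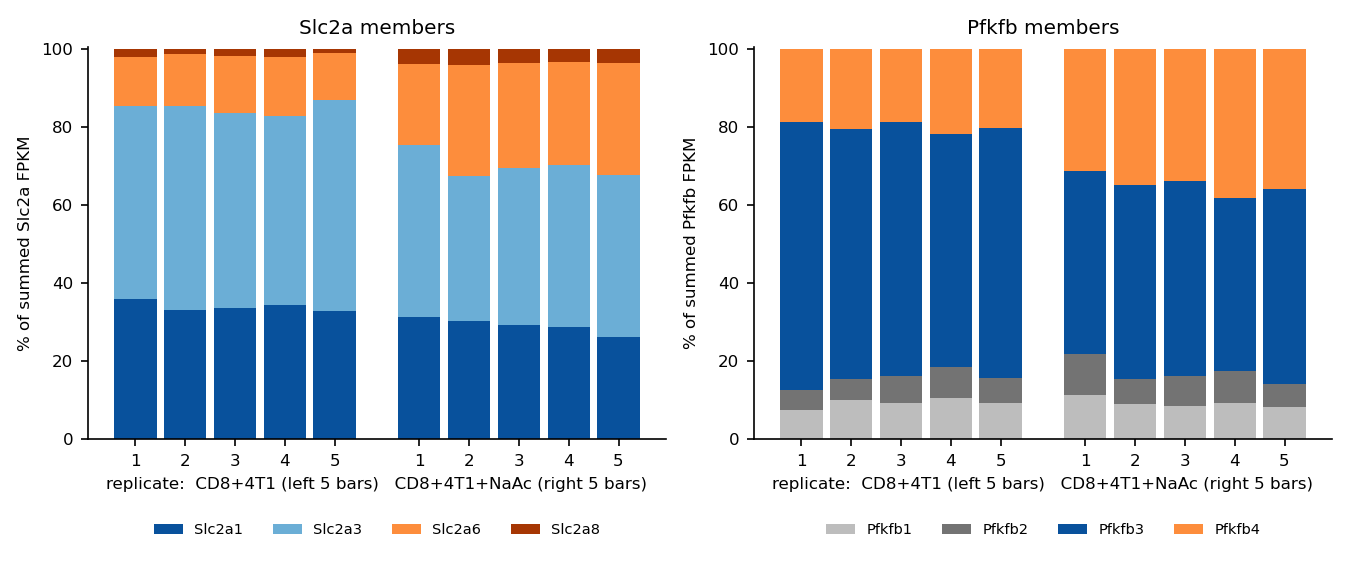
Share of each gene in the summed FPKM of the 4 Slc2a genes and of the 4 Pfkfb genes (percent), by sample and group. Slc2a6 and Pfkfb4 hold a larger share in every acetate sample than in any sample without acetate, and Slc2a3 and Pfkfb3 a smaller share.

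Among the PFKFB genes, Pfkfb3 fell and Pfkfb4 rose. Pfkfb3, the isoform with by far the strongest kinase over phosphatase activity, is listed on chromosome 2 from 11476244 to 11558888 (minus strand). It stood at 11.0, 10.5, 10.7, 9.03 and 9.79 FPKM without acetate and at 7.30, 7.74, 7.84, 6.90 and 7.36 with it. All acetate samples were the lower ones. The mean of Pfkfb3 went from 10.2 ± 0.811 to 7.43 ± 0.378 (log2 fold change -0.45 ± 0.07, SE; 95% interval -0.60 to -0.31; limma adjusted p = 0.000403). Relative to the T cell markers the fall was -0.28 and close to the threshold (limma adjusted p = 0.0472).

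Pfkfb4, a hypoxia-inducible isoform, is listed on chromosome 9 from 108820846 to 108861296 (plus strand). Its values were 3.03, 3.35, 3.09, 3.29 and 3.12 FPKM without acetate and 4.88, 5.45, 5.29, 5.97 and 5.27 with it. The gap between the groups was wider than the range within either. The mean of Pfkfb4 was 3.18 ± 0.136 without and 5.37 ± 0.392 with acetate, 169.1% of the former (log2 fold change 0.74 ± 0.07, SE; 95% interval 0.59 to 0.89; limma adjusted p = 3.36e-05).

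The ratio of Pfkfb3 to Pfkfb4 was 3.64, 3.12, 3.47, 2.75 and 3.14 without acetate and 1.50, 1.42, 1.48, 1.16 and 1.40 with it. Pfkfb3 was thus the more abundant in each sample, but by a smaller margin with acetate. The sum over the 4 Pfkfb genes was 15.9 ± 0.623 FPKM without and 15.4 ± 0.416 with acetate, of which Pfkfb3 made up 64.3% ± 3.14 and 48.2% ± 2.57 and Pfkfb4 20.1% ± 1.28 and 34.8% ± 2.57. These too are descriptions with no test.

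Pfkfb1, the isoform known from liver and muscle, and Pfkfb2, known from heart, were scarcely expressed and did not pass the test. Pfkfb1 stood at 1.48 ± 0.183 FPKM without and 1.43 ± 0.214 with acetate (log2 fold change -0.05; 95% interval -0.34 to 0.25; limma adjusted p = 0.819). Pfkfb2 stood at 0.997 ± 0.159 and 1.20 ± 0.282 (log2 fold change 0.23; 95% interval -0.16 to 0.63; limma adjusted p = 0.344). Samples of the groups overlapped for each. Their listed positions overlap genes on the opposite strand, Apex2 for Pfkfb1 and Yod1 for Pfkfb2, which held 251.8% and 342.9% as many fragments as the Pfkfb gene. As the strand setting of the counting is not given in the sources used here, reads from the shared stretch of the listed loci, 1640 bases for Pfkfb1 and 7032 for Pfkfb2, cannot be told apart. Gm29427 lies on the same strand as Pfkfb2 and shares 26618 of its 40072 listed bases, with 3 fragments over all samples. How reads shared by genes were counted is not given either, and the part of this overlap in the level of Pfkfb2 was not tested. For Slc2a1, Slc2a3, Pfkfb3, Tigar and Txnip, overlapping genes held at most 1.40% as many fragments, and none overlapped Slc2a6, Slc2a8 or Pfkfb4. The listed position of Txnip lies wholly within that of Gm15441 on the opposite strand (3927 of 3927 bases). Gm15441 held 0.267% as many fragments, and reads lost from either gene through this overlap were not examined.

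Tigar, a fructose-2,6-bisphosphatase that is a known p53 target, is listed on chromosome 6 from 127062079 to 127086520 (minus strand). It stood at 6.10, 5.63, 5.36, 5.79 and 5.90 FPKM without acetate and at 7.03, 4.55, 4.49, 3.83 and 5.19 with it. In the acetate group replicate 1 was the highest of all 10 samples, while the other 4 lay below every sample without acetate. Over all samples Tigar did not pass the test (log2 fold change -0.22; 95% interval -0.52 to 0.08; limma adjusted p = 0.227). Without acetate replicate 1 the log2 fold change was -0.35 (limma adjusted p = 0.00696), so this call rests on 1 library. With all samples it was -0.05 when rescaled to the same total (limma adjusted p = 0.817). Scaled to the T cell markers it was also -0.05 (limma adjusted p = 0.856).

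Txnip, the inhibitor of glucose uptake, rose with acetate. It is listed on chromosome 3 from 96465273 to 96469199 (plus strand). Its values were 69.8, 88.4, 89.6, 82.1 and 116.6 FPKM without acetate and 111.8, 121.4, 134.1, 127.9 and 148.6 with it. Only replicate 5 without acetate reached into the range of the acetate group. The mean of Txnip went from 89.3 ± 17.2 to 128.8 ± 13.8 (log2 fold change 0.54 ± 0.12, SE; 95% interval 0.27 to 0.82; limma adjusted p = 0.00612). It was the most abundant of the 10 genes with acetate, whereas Slc2a3 had the highest mean without it.

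**Figure D3:**
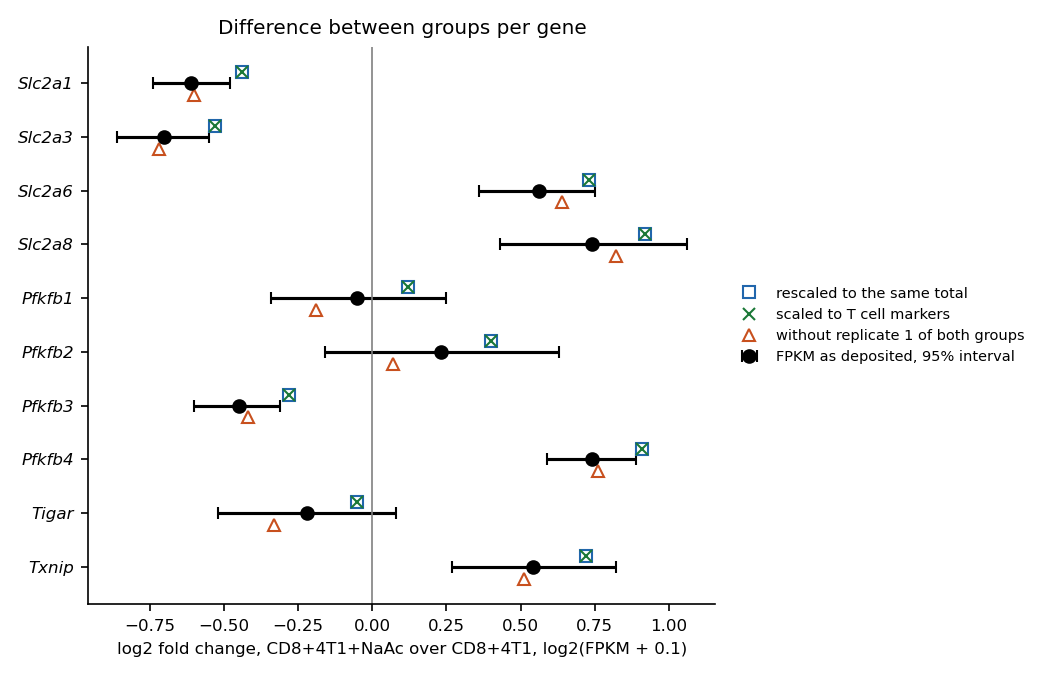
Log2 fold change of the 10 genes with acetate, from limma on log2(FPKM + 0.1), n = 5 per group; black points with bars are the deposited FPKM with 95% intervals, squares the samples rescaled to the same total, crosses those scaled to the T cell markers and triangles the fit without replicate 1 of both groups. The intervals of Slc2a1, Slc2a3 and Pfkfb3 lie below 0, those of Slc2a6, Slc2a8, Pfkfb4 and Txnip above 0, and those of Pfkfb1, Pfkfb2 and Tigar include 0.

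Promoter sequences were read because genes of this group are textbook targets of MondoA and of hypoxia-inducible factor 1 (HIF1). The 250 bases before each start were searched on both strands in the RefSeq promoter table (GRCm38.p6), which holds 15 starts for 9 of the 10 genes and no entry for Slc2a3. The letters of the carbohydrate response element to which MondoA binds, 2 copies of CACGNG with 5 bases between them, occur in 0.0457% of all 32851 promoters. The core letters of HIF1 sites, ACGTG and GCGTG, occur in 16.6% and 28.2%. Capitals mark the matches.
Txnip, chr3:96557837-96557896, plus strand: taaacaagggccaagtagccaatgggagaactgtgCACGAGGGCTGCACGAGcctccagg
Slc2a1, chr4:119108665-119108724, plus strand: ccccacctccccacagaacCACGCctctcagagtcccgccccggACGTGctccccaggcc
Pfkfb3, upstream start, chr2:11553960-11554019, minus strand: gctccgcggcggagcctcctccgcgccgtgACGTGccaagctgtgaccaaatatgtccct
Pfkfb3, downstream start, chr2:11502111-11502170, minus strand: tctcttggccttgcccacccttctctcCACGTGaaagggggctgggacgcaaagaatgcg
Pfkfb4, chr9:108991762-108991821, plus strand: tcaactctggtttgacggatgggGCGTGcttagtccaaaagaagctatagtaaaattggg
Of the 9 genes, the carbohydrate response element letters were found before Txnip alone. ACGTG was found before Slc2a1, before both starts of Pfkfb3 and also before 2 of 3 starts of Pfkfb2, which did not pass the test. GCGTG was found before genes of either direction: Slc2a1 and Pfkfb3, which fell, and Slc2a6 (4 matches), Slc2a8, Pfkfb4 and Txnip (2 matches), which rose, as well as Pfkfb1 and Pfkfb2. Tigar had no match. The capitals CACGC in Slc2a1 are GCGTG read on the other strand, and CACGTG in Pfkfb3 holds ACGTG on both strands. A match describes letters in a window and is not a binding site, and these coordinates belong to another annotation than the listed gene positions and should not be set against them.

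Other genes of the pathway were described in 9 lists, drawn up with earlier results of these data known. In them 52 of the 85 genes tested passed (61.2%, compared with 36.5% of all genes), 11 higher and 41 lower. Among all genes averaging 5 FPKM or more a larger share passed, 3733 of 7800. The balance of higher and lower pathway genes moved to 22 and 26 with samples rescaled to the same total. Scaled to the T cell markers it was 20 higher and 24 lower, and under median-ratio scaling 54 pathway genes were called. Of all genes, 17.6% were higher and 19.0% lower. These shares were 31.2% and 8.83% when rescaled to the same total, and 27.1% and 6.70% when scaled to the T cell markers. Among glycolysis enzymes 2 of 19 were higher and 10 lower (median log2 fold change -0.38, compared with -0.02 for all genes), against 2 and 8 under either scaling. The phosphofructokinases, on which fructose-2,6-bisphosphate acts, were divided: Pfkp fell from 75.3 to 45.2 FPKM (log2 fold change -0.73, limma adjusted p = 1.20e-05) and Pfkl from 39.0 to 24.8 (-0.65, limma adjusted p = 1.21e-05), while Pfkm, the muscle form, rose from 12.2 to 16.1 (0.39, limma adjusted p = 0.00113). Ldha, which turns pyruvate into lactate, fell from 804.7 to 505.1 FPKM (-0.67, limma adjusted p = 8.72e-05). Eno3, the muscle enolase, was the other riser (0.43, limma adjusted p = 0.00115).

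Of 16 HIF1 targets tested, 15 were lower, against 19.0% of all genes, and 0 higher. Their median log2 fold change was -0.67. Egln3, an oxygen-sensing prolyl hydroxylase, fell from 30.4 to 12.9 FPKM (-1.23, limma adjusted p = 2.47e-05). Bnip3, a mitophagy receptor, fell from 51.5 to 23.6 (-1.12, limma adjusted p = 3.41e-05), and Higd1a, a hypoxia-induced mitochondrial protein, from 38.2 to 19.8 (-0.95, limma adjusted p = 3.41e-05). Vegfa did not pass (-0.40, limma adjusted p = 0.0675). The list leaves out the 10 genes, of which the hypoxia-inducible Pfkfb4 rose (0.74, limma adjusted p = 3.36e-05), while Slc2a1, Slc2a3 and Pfkfb3 fell. With samples rescaled to the same total 13 HIF1 targets were lower, against 8.83% of all genes. Scaled to the T cell markers 12 were, against 6.70%. Among the transcription factors themselves, Epas1 rose (0.76, limma adjusted p = 0.00449), Trp53 (-0.33, limma adjusted p = 0.00185) and Max (-0.31, limma adjusted p = 0.00124) fell, and Hif1a (0.06, limma adjusted p = 0.626) and Myc (0.16, limma adjusted p = 0.112) did not pass, although Myc was higher after rescaling to the same total (0.34, limma adjusted p = 0.00848). The falls of Trp53 and Max were not called when samples were rescaled to the same total. There 3 of the 6 factors tested were higher and 0 lower, compared with 31.2% and 8.83% of all genes. Nothing is read from the list of factors as a whole.

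Among 11 p53 targets 1 was higher and 8 lower, but 3 were lower after rescaling to the same total and 2 when scaled to the T cell markers, under which Sesn2 was not called (-0.25, limma adjusted p = 0.0815). In all 4 of the 11 were called after rescaling to the same total and 3 when scaled to the T cell markers, compared with 40.0% and 33.8% of all genes, and nothing is read from this list. Cdkn1a, a cell cycle inhibitor, fell from 240.6 to 158.5 FPKM (-0.61, limma adjusted p = 0.000147), followed by Bax (-0.44) and Sesn2 (-0.42), and Sesn1 rose (0.47, limma adjusted p = 0.00494). In the thioredoxin and glucose-sensing list 2 of 10 were higher and 3 lower, compared with 17.6% and 19.0% of all genes. When rescaled to the same total or scaled to the T cell markers, 4 were higher and 1 lower. Of all genes, 31.2% were higher and 8.83% lower under the first scaling, and 27.1% and 6.70% under the second. The falls of Mlx and Txnrd2 were not called under either scaling, and nothing is read from this list as a whole. Mlxip, which encodes MondoA, rose from 18.9 to 30.0 FPKM (0.66, limma adjusted p = 2.19e-05) and the arrestin Arrdc3 by 0.38, whereas Txn1, the thioredoxin that TXNIP binds, fell from 367.2 to 246.1 (-0.58, limma adjusted p = 0.000766), as did Mlx (-0.40, limma adjusted p = 0.0354) and Txnrd2 (-0.27, limma adjusted p = 0.0294). Arrdc4, another known MondoA target, did not pass (-0.12, limma adjusted p = 0.535, and 0.05 under either scaling).

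Of the genes that move transporters to and from the cell surface, 1 of 8 was higher and 2 were lower, against 4 and 1 when rescaled to the same total and 3 and 1 when scaled to the T cell markers, under which Snx27 was not called. Tbc1d4, a Rab GTPase-activating protein that holds GLUT4 inside the cell, rose from 0.655 to 2.28 FPKM (1.68, limma adjusted p = 7.34e-05), and the retromer subunit Vps29 (-0.47) and the sorting nexin Snx27 (-0.27) fell. Of 13 genes tested from the AKT, AMPK and mTOR pathways, which signal to PFKFB and TXNIP proteins, 3 were higher (Rptor 0.31, Tsc2 0.28 and Prkab1 0.22) and 1 was lower (Akt2 -0.20), against 6 and 0 after rescaling to the same total, where Akt2 was not called. The shares called in the traffic and signaling lists, 37.5% and 30.8%, were near or below the 36.5% of all genes, and nothing is read from them about these lists. Only 2 of 8 other glucose transporters were tested, of which Slc2a4, the insulin-responsive GLUT4, rose from 1.73 to 2.18 FPKM (0.32, limma adjusted p = 0.0194). The other, Slc2a9, was not called (0.20, limma adjusted p = 0.113). It was higher when rescaled to the same total (0.37, limma adjusted p = 0.00503) and when scaled to the T cell markers (0.37, limma adjusted p = 0.0166). The gluconeogenic phosphatases Fbp1 and Fbp2 were below the filter, at 0.0850 and 0.0165 FPKM without and 0.311 and 0.147 with acetate.

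**Figure D4:**
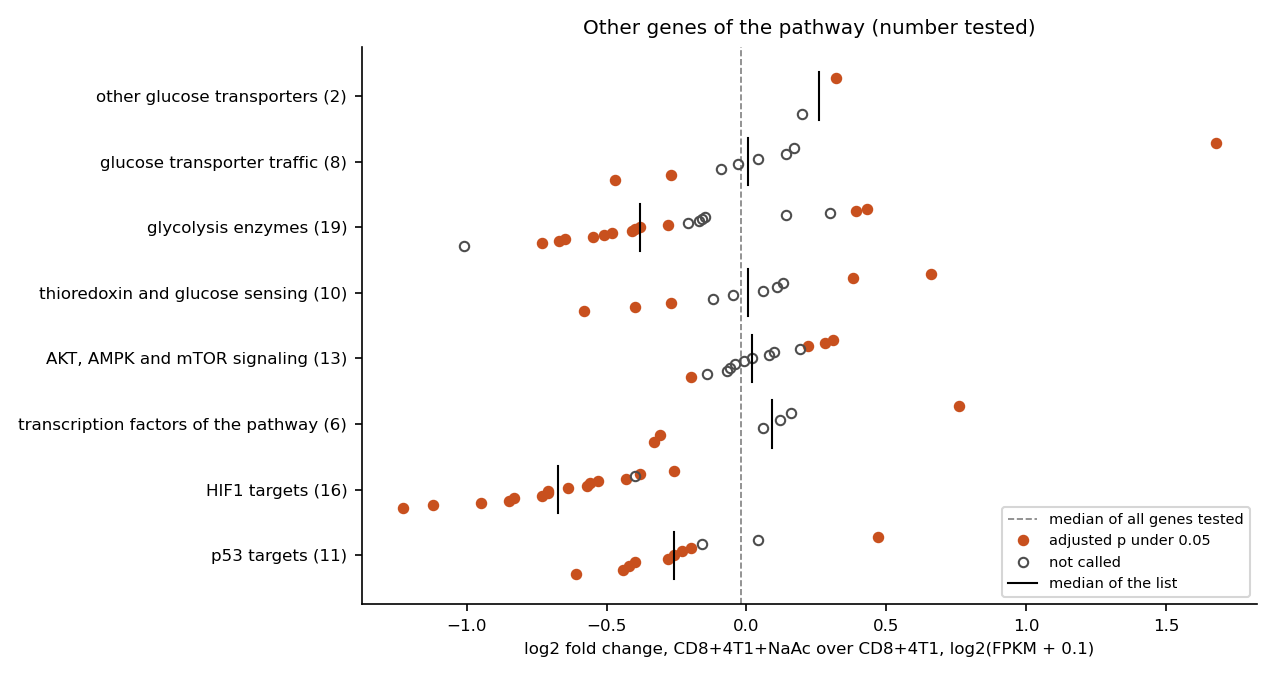
Log2 fold change with acetate of the tested genes in each pathway list, on log2(FPKM + 0.1), with the number tested in parentheses; filled points passed an adjusted p of 0.05, open points did not, black lines are the medians of the lists and the dashed line that of all genes tested. The HIF1 targets lie furthest below 0 as a list, with a median of -0.67, and 15 of 16 passed the test.

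The order of the levels differed between the groups. Without acetate the means ran from Slc2a3 (101.3 FPKM), Txnip (89.3), Slc2a1 (67.6) and Slc2a6 (26.9) through Pfkfb3 (10.2), Tigar (5.76), Slc2a8 (3.31) and Pfkfb4 (3.18) to Pfkfb1 (1.48) and Pfkfb2 (0.997). With acetate they ran from Txnip (128.8), Slc2a3 (62.1), Slc2a1 (44.1) and Slc2a6 (39.9) through Pfkfb3 (7.43), Slc2a8 (5.49), Pfkfb4 (5.37) and Tigar (5.02) to Pfkfb1 (1.43) and Pfkfb2 (1.20). Without acetate the ranges overlapped between Slc2a3 and Txnip, between Txnip and Slc2a1, and between Slc2a8 and Pfkfb4. With acetate they overlapped between Slc2a1 and Slc2a6, among Tigar, Slc2a8 and Pfkfb4, between Pfkfb3 and Tigar, and between Pfkfb1 and Pfkfb2.

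The 3 genes whose log2(FPKM + 0.1) was most like that of each of the 10 genes, among those averaging 5 FPKM or more, are given as a description. The 10 samples form 2 groups, so any gene that differs between them will score high. For Slc2a1 these were Cdc42se1 (Pearson r = 0.986), Ciart (0.985) and Dynll1 (0.984). For Slc2a3 they were Slc17a6 (0.993), Vbp1 (0.986) and Gfpt1 (0.984), and for Pfkfb3 they were Gtf2e2 (0.978), Tmed8 (0.973) and Ptrh2 (0.971). Slc2a6 was most like Acads (0.995), Phc2 (0.984) and Pfkm (0.983), and Slc2a8 most like Tyk2 (0.980), Itpk1 (0.969) and Clcf1 (0.963). Pfkfb4 was most like Itpr3 (0.990), Gsn (0.988) and Aldh3a1 (0.988), of which Gsn had a mean of 17.7 FPKM without and 49.3 with acetate and Aldh3a1 1.53 and 19.5. The epithelial markers were also higher in every acetate sample in their summed level, and their part in this likeness was not tested. Txnip was most like Tgfbr2 (0.968), Ms4a4a (0.966) and Dtl (0.963). Of the genes that did not pass, Tigar was most like 1810013L24Rik (0.955), Aurkb (0.952) and Lrrc47 (0.942), Pfkfb1 most like Ifitm2 (0.877), Acadvl (0.874) and Gng12 (0.866), and Pfkfb2 most like Septin9 (0.893), Ogfod2 (0.886) and Pcyt2 (0.881).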

How the data were processed

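The authors deposited one table of FPKM values per gene for 10 RNA-seq libraries (NEBNext Ultra, Illumina NovaSeq), with gene lengths and positions as other columns. The submitters' processing notes name fastp, HISAT2 2.0.5, StringTie 1.3.3b and featureCounts 1.5.0-p3. The genome build, annotation and strand setting are not given in the sources used here. FPKM scales by fragments, not by the FPKM total, which was 310964.6 to 335151.4 without and 282994.6 to 295927.8 with acetate. Rescaling to 1 total is therefore among the alternatives. The values were whole multiples of 1 fragment (100.0% within 0.1), which gave fragments per gene and the depth of scaling.

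The 15710 genes averaging 0.5 FPKM or more were tested with limma 3.58.1 (R 4.3.3; trend and robust moderation) on log2(FPKM + 0.1), where fold changes of low genes are understated, with Benjamini-Hochberg adjustment over all of them. The authors' own test was DESeq2; limma was used here because the deposited unit is FPKM. Exact two-sided permutation tests over 252 splits (smallest p 0.00794) accompanied the 10 genes. The procedure was tested on simulated data. Named by rule were the 10 genes, up to 3 called risers and 3 called fallers per list, the closest genes by Pearson r, and label checks. Outside this rule, Vegfa, Hif1a, Myc, Arrdc4, Slc2a9, Cd68, Fbp1 and Fbp2 were named by choice. With the deposited FPKM these were not called or lay below the filter. Apex2, Yod1, Gm29427 and Gm15441 were named because they overlap Pfkfb1, Pfkfb2 or Txnip. The 10 genes and the lists were chosen with earlier results of these data known. Alternatives covered pseudocount, filter, scaling, moderation, replicate block, voom on recovered fragments, and leaving out libraries. Sequences were read with Python 3.11.15 and figures drawn with matplotlib 3.10.9.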

Additional observations from a re-analysis of the deposited data

Results flagged for a closer look

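Slc2a3 in CD8+4T1+NaAc replicate 2 (55.3 FPKM) was the lowest of its group, and its gap to the next sample took up 0.711 of the group's range on the log2(FPKM + 0.1) scale, just above Dixon's critical value of 0.71 for 5 samples, but 0.694 on the FPKM scale, below it. Slc2a6 in CD8+4T1+NaAc replicate 1 (31.0 FPKM) was the lowest of its group, with a gap of 0.803 of the range on the log2 scale and 0.774 on the FPKM scale. These were 2 of 20 groups of 5 checked on the log2 scale, of which chance sets apart about 1 in 20. The log2 fold change of Slc2a3 stayed between -0.75 and -0.66, and that of Slc2a6 between 0.52 and 0.64, when each library was left out in turn.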

How the results depend on the processing

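Over 21 alternatives, the 7 called genes kept their direction and their call wherever they were tested. Slc2a8, Pfkfb4, Pfkfb1 and Pfkfb2 fell below a filter of 5 FPKM and were not tested under it. Of the 10 genes 5 were then called, which is every gene left except Tigar. In all 3733 of the 7800 genes tested were called under this filter, compared with 5742 of 15710 under the filter of 0.5 FPKM. Pfkfb1, never called, changed sign to 0.12 when rescaled to the same total and to 0.12 when scaled to the T cell markers, and ranged from -0.12 to 0.01 when single libraries were left out. Tigar ranged from -0.35 to -0.14 over these and was called only without acetate replicate 1 and without replicate 1 of both groups (-0.33, limma adjusted p = 0.0156). Leaving out single libraries gave 4947 to 6965 called genes. Deviations of samples with the same number correlated weakly (r from -0.03 to 0.07). With 5 samples per group this cannot tell whether the numbers pair them, and the labels do not say. With a replicate block 5399 genes, 7 of the 10 genes and 52 pathway genes were called. Depth limits Pfkfb1 and Pfkfb2 most, with at most 122 and 201 fragments per sample.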
